A study of Mus musculus with 14 samples.

Results

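The fibroblast growth factor (FGF) genes described here are the ligands Fgf8, Fgf10 and Fgf20, the receptors Fgfr1, Fgfr2 and Fgfr3, the feedback inhibitors Spry2 and Spry4, and the ETS transcription factors Etv4 and Etv5. They were taken by name, 10 of the 35976 counted gene symbols, and no measured value served as the rule. Earlier results of these data were known when they were chosen. They were read in RNA-seq libraries of supporting cells (SCs) that were sorted by flow cytometry, as EGFP+ cells, from cochlear explants of Lfng-EGFP mice (B6;FVB-Tg(Lfng-EGFP)HM340Gsat/Mmucd, maintained on C57BL/6). The explants had been kept for 24 hours with 2 μM compound E, which inhibits the γ-secretase that frees the Notch intracellular domain, or with an equal volume of its solvent, DMSO. Compound E and DMSO were each represented by 4 libraries at P0 and by 3 libraries at P6. All groups, the DMSO controls included, carried the Lfng-EGFP transgene and no other allele or agent that the labels name. Tissue of several organs was pooled in a tube before sorting, so a library is not 1 animal. EGFP is driven by regulatory DNA of Lfng, a gene that itself responds to Notch, so the sort gate and the treatment were not independent. The replicate numbers of the compound E and DMSO libraries pair them within a batch, and no batch held both ages. At P0, replicates 3 and 4 of both treatments shared the same batch. For those libraries the batch does not set which are paired, and the pairs rest on the number alone.

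FGF ligands bind receptor tyrosine kinases at the cell surface, and the receptors pass the signal through the Ras and MAPK cascade to the nucleus. There the ETS factors Etv4 and Etv5 and the Sprouty genes are among the usual transcriptional targets, and the Sprouty proteins then damp the same cascade. In the developing cochlea, FGF20 acts on the prosensory domain that gives rise to outer hair cells (HCs) and their SCs, and FGF8 from inner HCs acts through FGFR3 on the neighboring SCs that become pillar cells.

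Stretches of 250 bases before the transcription start were held for 5 of the 10 genes (7 start sites, RefSeq on GRCm38.p6), and 3 of them are shown. They belong to the members with the most RNA per kilobase of exon in every DMSO and compound E group, among them Fgf10, whose P0 compound E libraries all lay below the P0 controls, and Etv5, which was called lower in the DMSO libraries of P6 than in those of P0. Each is written 5′ to 3′ on the strand of its gene, and capitals mark matches to the letters of a motif on either strand.
Fgfr3, chr5:33721474-33721723, plus strand: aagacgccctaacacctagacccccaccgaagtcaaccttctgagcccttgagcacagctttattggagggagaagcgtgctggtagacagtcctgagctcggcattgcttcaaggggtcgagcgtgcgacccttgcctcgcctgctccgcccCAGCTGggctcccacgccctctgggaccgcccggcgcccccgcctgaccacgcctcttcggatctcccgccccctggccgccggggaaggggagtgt
Fgf10, chr13:118714449-118714698, plus strand: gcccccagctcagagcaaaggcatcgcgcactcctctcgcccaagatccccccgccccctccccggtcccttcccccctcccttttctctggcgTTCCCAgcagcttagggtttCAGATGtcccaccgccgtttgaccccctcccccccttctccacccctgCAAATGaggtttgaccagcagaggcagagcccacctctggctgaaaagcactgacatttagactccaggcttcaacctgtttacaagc
Etv5, chr16:22439571-22439820, minus strand: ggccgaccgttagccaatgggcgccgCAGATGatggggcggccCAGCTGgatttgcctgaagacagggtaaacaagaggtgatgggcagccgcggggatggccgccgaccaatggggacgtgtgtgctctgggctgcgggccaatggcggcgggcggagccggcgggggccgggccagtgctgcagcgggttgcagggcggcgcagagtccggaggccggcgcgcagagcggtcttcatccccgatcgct
The letters searched were TGGGAA, the core bound by the Notch effector RBPJ, CCGGAA, a core of the PEA3 type of ETS factors, CACGCG, a site of Hes and Hey repressors, and CANNTG, the E-box of bHLH factors such as ATOH1. These occur in 21.6%, 12.0%, 7.62% and 66.2% of the 32851 stretches of the same length. Fgf10 held 1 match to the RBPJ core, 156 bases before its start, and 2 E-boxes. The printed stretches of Fgfr3 and Etv5 held 1 and 2 E-boxes. At their other start sites, that of Etv5 held 2 matches to the RBPJ core and no E-box, and that of Fgfr3 held no match to any of the 4 motifs. The stretch before Fgfr2 held 1 match to the RBPJ core and 1 E-box, and the stretch before Spry2 held 1 E-box. As a check, bases shortly after each start were sought in the GENCODE transcripts of the gene. They were not found for Fgfr2 or for the other start site of Etv5, so the matches there are less sure. They were found for the remaining stretches. Neither the ETS nor the Hes and Hey letters were found in any of the 7. A match describes letters and not binding.

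The libraries held 19415066 to 44430063 reads assigned to genes (median of 29565676), and levels are given as RPM, the reads of a gene scaled to a common library total. Of the markers of SCs, 10 of 10 were detected in each group, with a summed level of 5096 to 10090 RPM in the P0 DMSO libraries and 3881 to 4827 RPM with compound E. The P0 DMSO library of replicate 1 was the lowest of its group, and the other 3 lay at 8377 RPM or above. Markers of HCs summed to 737 to 1802 RPM with DMSO at P0 and 1484 to 2832 RPM with compound E. At P6 the markers of mesenchyme summed to 757, 2148 and 3493 RPM in DMSO replicates 1 to 3 and to 1062, 1429 and 2993 RPM with compound E, so both libraries of replicate 3 stood highest. These sums were largely Lum, which averaged 2021 RPM in the P6 DMSO and 1709 RPM in the P6 compound E libraries.

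Differences in read counts were tested with the quasi-likelihood test of edgeR across all genes, and p-values were adjusted over all genes tested by the Benjamini-Hochberg method. A gene was called where the adjusted p did not exceed 0.01 and the change reached 2-fold. With compound E at P0, 0 of the 10 FGF genes were called, against 1.22% of the 15937 genes tested. With the replicate number as a block, 1 of 10 was called, against 2.2% of all genes, and it was Fgf20. DESeq2 called 1 of 10 (against 2.67%) and, with the block, 2 of 10 (against 3.29%), which were Fgf20 and Spry4. Ranges of the 4 compound E and the 4 DMSO libraries did not overlap for Fgf10, Fgf20 and Etv4, all lower with compound E (a pattern held by 4.76% of all genes), nor for Fgfr1, which was higher (5.13%). Fgf10, Fgf20, Spry4 and Etv4 were lower with compound E in each of the 4 pairs (4 of 10, against 11.7% of all genes), and Fgf8 and Fgfr1 were higher in each (2 of 10, against 17.4%). In the libraries of sorted cells, fewer cells of a type and less RNA per cell cannot be told apart.

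**Figure D1:**
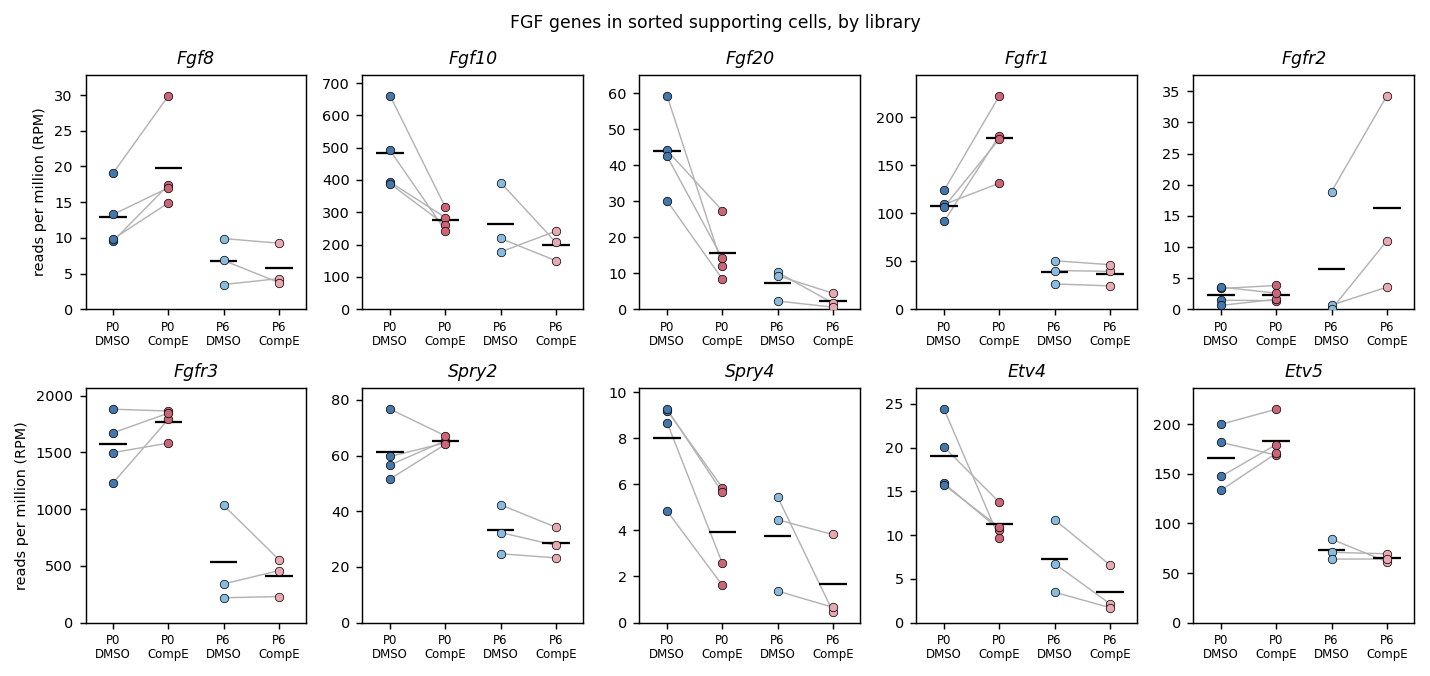
Level of each of the 10 FGF genes in RPM (linear axis from 0) in each library, in the P0 DMSO, P0 compound E (CompE), P6 DMSO and P6 CompE groups; points are libraries, grey lines join the libraries of 1 replicate number and black bars are group means. The 4 P0 CompE libraries lie below the 4 P0 DMSO libraries for Fgf10, Fgf20 and Etv4 and above them for Fgfr1.

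Among the 3 ligands, Fgf20 (chromosome 8, 40279166 to 40286953, minus strand, GRCm38.p6) had the largest fold difference with compound E. In the P0 DMSO libraries of replicates 1 to 4 it stood at 44.1, 59.2, 30.1 and 42.5 RPM, and in the compound E libraries at 27.3, 12.1, 8.37 and 14.1 RPM. The groups did not overlap, and the compound E library of replicate 1 was the nearest to the controls. The means were 43.96 ± 11.9 RPM (SD, n = 4) with DMSO and 15.5 ± 8.26 RPM (SD, n = 4) with compound E. Its log2 fold change was -1.56 ± 0.32 (SE) and did not pass the threshold (adjusted p = 0.0270). With the replicate block Fgf20 fell by 1.63 ± 0.24 on the log2 scale (SE, adjusted p = 0.00526, edgeR), and DESeq2 called it without a block (adjusted p = 7.99e-05). Without the compound E library of replicate 1 it was called without a block, at a log2 fold change of -1.95 (adjusted p = 0.00602). It was lower in 4 of 4 pairs, by log2 ratios of -2.29 to -0.69. Beside it, 9 of the 10 SC markers had lower values with compound E, with a median log2 fold change of -0.88 against 0.01 over all genes. With the block 4 of the 10 (Fabp7, Hey2, Jag1 and Lfng) were called, against 2.2% of all genes. The markers ran from -3.38 for Fabp7 to 0.36 for Rorb, with Prox1 at -0.31 and S100a1 at -0.07. The paper names Lfng as a Notch target and reports lower Hey2 and Fabp7 after Notch inhibition. For such markers, fewer SCs and a response to the inhibitor cannot be told apart. The part of these SC genes in the level of Fgf20 was not tested.

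At P6, Fgf20 stood at 10.3, 9.33 and 2.28 RPM with DMSO and at 1.71, 4.46 and 0.583 RPM with compound E. The compound E library of replicate 2 lay above the DMSO library of replicate 3, so the groups overlapped, while each of the 3 pairs was lower with compound E, by log2 ratios of -2.58 to -1.06. Without a block the log2 fold change was -1.66 ± 0.87 (SE), with an adjusted p of 1.000 (edgeR). With libraries left out it ran from -2.70 (without the compound E library of replicate 2) to -1.17 (without both libraries of replicate 1). The replicate block gave -1.85 ± 0.44 (SE, adjusted p = 0.489). These P6 values rest on 16 to 259 reads per library.

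Fgf10 (chromosome 13, 118714699 to 118792573, plus strand) encodes a ligand of FGFR2 that is made in the prosensory epithelium and the greater epithelial ridge. It shares exonic bases with Gm16263 on the opposite strand, and the use of strand in counting is not given in the sources used here. With DMSO at P0 it stood at 393, 660.2, 388 and 492 RPM, and with compound E at 284, 316, 260.4 and 243 RPM. Every compound E library lay below every DMSO library, and the control of replicate 2 was the highest. Fgf10 had a log2 fold change of -0.86 ± 0.19 (SE, adjusted p = 0.0400, edgeR), and the block gave -0.82 ± 0.12 (SE, adjusted p = 0.00606), which passed the limit on p and not the limit of 2-fold. The 4 pairs lay between -1.06 and -0.47 on the log2 scale. At P6 the level was 177, 392 and 219 RPM with DMSO and 242, 207 and 150.2 RPM with compound E, and the groups overlapped. There Fgf10 had a log2 fold change of -0.39 ± 0.34 (SE), with 2 of 3 pairs lower.

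Fgf8 (chromosome 19, 45736491 to 45742941, minus strand), the ligand of inner HCs, was low throughout. With DMSO at P0 it stood at 19.1, 9.54, 9.84 and 13.3 RPM, and with compound E at 29.9, 17.4, 14.9 and 17.0 RPM. The groups overlapped, since the control of replicate 1 exceeded 3 of the compound E libraries. Within the 4 pairs it was higher with compound E each time, by log2 ratios of 0.36 to 0.87. The log2 fold change was 0.58 ± 0.25 (SE, adjusted p = 0.340, edgeR) and 0.58 ± 0.13 (SE, adjusted p = 0.0368) with the block. Of the 12 HC markers, 11 had higher values in the same libraries (median log2 fold change of 0.55, against 0.01 over all genes). With the block 2 of the 12, Atoh1 and Pou4f3, were called, against 2.2% of all genes. From single-cell data of neonatal explants, the paper reports higher Fgf8 in a subset of Deiters' cells with compound E than in Deiters' cells with DMSO. The paper describes this subset as moving toward an HC state. Whether the level of Fgf8 here moved with HC transcripts or with that subset was not tested. At P6 Fgf8 stood at 3.46, 6.84 and 9.90 RPM with DMSO and 4.30, 3.73 and 9.25 RPM with compound E, with no common direction over the 3 pairs.

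Among the 3 receptors, Fgfr1 (chromosome 8, 25518759 to 25575718, plus strand), whose product is needed for growth of the prosensory domain, was the one whose P0 groups did not overlap. Its exons overlap those of Gm16159 on the opposite strand. With DMSO at P0 it stood at 91.4, 109, 107 and 124 RPM, and with compound E at 181, 131, 177 and 222 RPM. The lowest compound E library, that of replicate 2, still exceeded the highest control. The means were 108 ± 13.3 RPM with DMSO and 178 ± 37.2 RPM with compound E (SD, n = 4 each). For Fgfr1 the log2 fold change was 0.68 ± 0.17 (SE, adjusted p = 0.0590, edgeR) and, with the block, 0.67 ± 0.13 (SE, adjusted p = 0.0162), so it was called in neither. At P6 it stood at 40.3, 26.4 and 50.6 RPM with DMSO and 39.5, 24.4 and 46.4 RPM with compound E. The 2 libraries of a replicate number lay close together at P6, with log2 ratios of -0.12 to -0.03, while the numbers themselves differed more.

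Fgfr3 (chromosome 5, 33721724 to 33737068, plus strand) encodes the receptor of pillar cells and Deiters' cells and had the highest group mean per length of the 10 genes in each of the 4 groups. It shares exonic bases with G630022F23Rik on the opposite strand. With DMSO at P0 it stood at 1231, 1498, 1881 and 1673 RPM, and with compound E at 1793, 1582, 1864 and 1846 RPM. The groups overlapped and the log2 fold change was 0.13 ± 0.16 (SE, adjusted p = 0.845, edgeR). At P6 it stood at 1034, 340.2 and 218 RPM with DMSO and 556, 458 and 229 RPM with compound E. The control of replicate 1 held more than any other P6 library, and without it the log2 fold change with compound E moved from -0.34 to 0.58. The libraries of replicate 3 were the lowest in Fgfr3 in both treatments. They were also the lowest of their groups in SC markers (3393 RPM with DMSO and 2218 RPM with compound E). In both treatments they were highest in markers of mesenchyme, HCs, neurons, glia, and macrophages and endothelium. The part of cell makeup in the level of Fgfr3 was not tested.

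Fgfr2 (chromosome 7, 130162451 to 130266808, minus strand), a receptor of nonsensory otic epithelium and of mesenchyme, was low at P0, with 25 to 131 reads per library. It stood at 1.44, 0.626, 3.33 and 3.55 RPM with DMSO and 1.40, 1.60, 3.82 and 2.59 RPM with compound E, and the treatments overlapped. At P6 it stood at 0.667, 0 and 18.9 RPM with DMSO and 3.54, 11.0 and 34.3 RPM with compound E. The compound E library was higher in each of the 3 pairs, and both treatments were highest in replicate 3. That replicate had the most markers of mesenchyme and of the other cell types named for Fgfr3, and the fewest of SCs. The log2 fold change of 1.35 ± 1.64 (SE) and the blocked value of 2.78 ± 1.18 (SE, adjusted p = 0.686, edgeR) did not pass. Without the compound E library of replicate 3 the unblocked value was 0.25, and without the DMSO library of that replicate it was 5.61. The part of mesenchymal RNA or of other cell makeup in these values was not tested.

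The feedback inhibitors differed from each other. Spry2 (chromosome 14, 105891947 to 105896819, minus strand), which restrains FGF signaling next to the pillar cells, stood at 56.6, 59.7, 76.7 and 51.6 RPM with DMSO at P0 and at 65.3, 64.5, 67.1 and 64.0 RPM with compound E. The compound E values lay within the range of the controls, with a log2 fold change of 0.05 ± 0.14 (SE, adjusted p = 0.941, edgeR). At P6 it stood at 42.3, 32.3 and 24.7 RPM with DMSO and 34.2, 27.7 and 23.2 RPM with compound E. Each pair was lower with compound E, by log2 ratios of -0.30 to -0.09, and the treatments overlapped.

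Spry4 (chromosome 18, 38586247 to 38601347, minus strand), a second Sprouty inhibitor, stood at 4.84, 8.69, 9.21 and 9.27 RPM with DMSO at P0 and at 1.62, 2.58, 5.86 and 5.65 RPM with compound E. The control of replicate 1 lay among the compound E libraries, and all 4 pairs were lower with compound E, by log2 ratios of -1.75 to -0.65. Spry4 had a log2 fold change of -1.07 ± 0.43 (SE, adjusted p = 0.300, edgeR), and -1.19 ± 0.24 with the block (SE, adjusted p = 0.0232). DESeq2 with the block called it (adjusted p = 0.000199). At P6 Spry4 stood at 5.46, 1.37 and 4.47 RPM with DMSO and 0.477, 0.662 and 3.82 RPM with compound E, lower in each of the 3 pairs. Its log2 fold change at P6 was -1.19 ± 0.92 (SE) and rests on as few as 12 reads in a library. With libraries left out it ran from -2.66 (without the compound E library of replicate 3) to -0.38 (without both libraries of replicate 1).

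The ETS factors, both of the PEA3 group, did not follow each other under compound E. Etv4 (chromosome 11, 101769747 to 101785310, minus strand) stood at 24.4, 15.9, 20.1 and 15.7 RPM with DMSO at P0 and at 9.66, 10.6, 13.8 and 10.9 RPM with compound E. All compound E libraries lay below all controls. Its log2 fold change was -0.79 ± 0.18 (SE, adjusted p = 0.0429, edgeR), or -0.79 ± 0.17 with the block (SE, adjusted p = 0.0283), and neither passed. At P6 it stood at 11.8, 6.73 and 3.47 RPM with DMSO and 6.60, 2.16 and 1.71 RPM with compound E. Each pair was lower with compound E, by log2 ratios of -1.64 to -0.83, while the spread between replicate numbers was as wide as the difference, and the log2 fold change was -1.07 ± 0.68 (SE). It ran from -1.89 without the compound E library of replicate 1 to -0.56 without the DMSO library of replicate 1.

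Etv5 (chromosome 16, 22381313 to 22439570, minus strand) stood at 182, 134, 200.1 and 148 RPM with DMSO at P0 and at 169, 171, 215 and 179.7 RPM with compound E. The treatments overlapped, with a log2 fold change of 0.11 ± 0.15 (SE, adjusted p = 0.852, edgeR). At P6 the values were 84.2, 70.9 and 64.0 RPM with DMSO and 61.3, 69.4 and 64.2 RPM with compound E, again overlapping. The log2 fold change there was -0.16 ± 0.17 (SE).

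**Figure D2:**
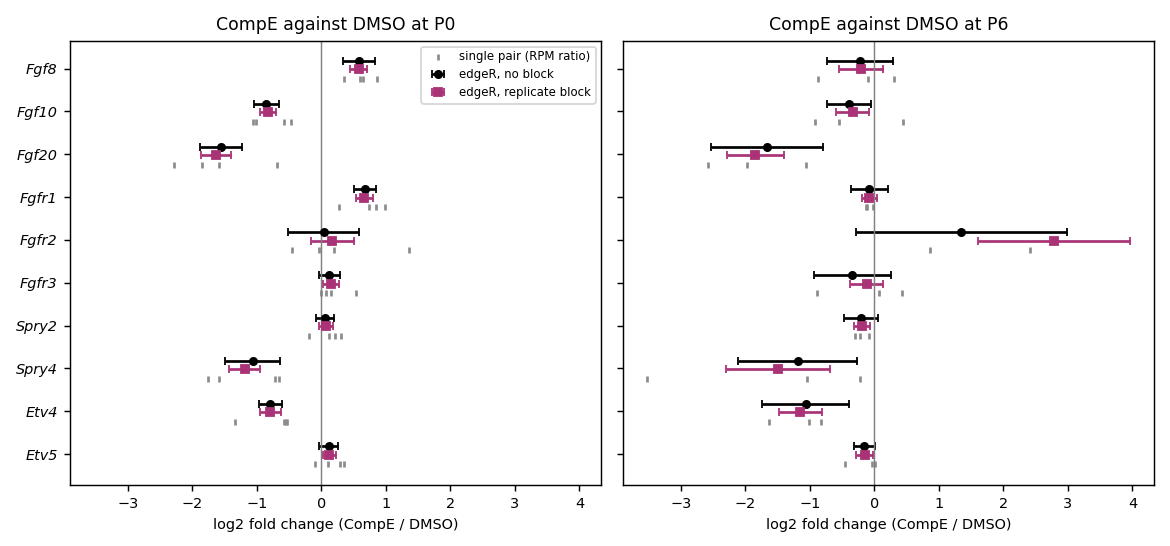
Log2 fold change of compound E (CompE) against DMSO for the 10 FGF genes at P0 (left) and P6 (right), from edgeR without a block (black circles) and with the replicate block (purple squares), with bars of 1 SE; grey ticks are the log2 RPM ratios of single pairs, and the P6 pair of Fgfr2 with a control of 0 is not drawn. At P0 the blocked values run from -1.63 for Fgf20 to 0.67 for Fgfr1, and most bars are wider at P6.

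At P6, 0 of the 10 FGF genes were called with compound E, with or without the block, against 0% of the 15322 genes tested. Over those genes edgeR gave an unadjusted p under 0.05 for 289, and for 1108 with the block, while DESeq2 called 11 (0.0718%) and, with the block, 53 (0.346%). None of the 10 FGF genes was among the DESeq2 calls, and the lowest adjusted p of a member was 0.0337, for Fgf20 with DESeq2 and the block. Fgf20, Fgfr1, Spry2, Spry4 and Etv4 were lower in each of the 3 pairs (5 of 10, against 17.1% of all genes), and Fgfr2 was higher in each (1 of 10, against 15.8%). No member had P6 treatment groups that did not overlap, lower (against 4.14% of all genes) or higher (against 3.04%). The tests at P6 had fewer libraries and a wider spread, since the common biological coefficient of variation was 46.7% at P6 and 27.2% at P0.

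Whether the response to compound E differed between the ages was tested as an interaction over all 14 libraries, and 0 of the 10 FGF genes were called, against 0% of 17090 genes (811 had an unadjusted p under 0.05). With the replicate block again 0 of 10 were called, against 0.0936% of all genes. The interaction of Fgf20 was -0.07 ± 0.83 on the log2 scale (SE), and each age fitted alone gave -1.56 ± 0.32 at P0 and -1.66 ± 0.87 at P6. That of Fgfr1 was -0.74 ± 0.33 (SE, adjusted p = 1.000, edgeR) and -0.73 ± 0.18 with the block (SE, adjusted p = 0.149). That of Etv4 was -0.26 ± 0.62 (SE), and none of the 10 passed the threshold.

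Between the ages themselves, in DMSO libraries, Fgfr1 and Etv5 were called, both lower at P6 (2 of 10, against 3.38% of 17090 genes called lower), and none was called higher (against 3.74%). Ages were in separate batches, so age and batch cannot be told apart. Marker genes were also called between the DMSO libraries of the ages. Of the SC markers, 3 of 10 were called lower and 1 higher at P6, with sums of 5096 to 10090 RPM at P0 and 3393 to 6529 RPM at P6. Of the HC markers, 2 of 12 were called lower and 1 higher, with sums of 737 to 1802 RPM and 498 to 1220 RPM. None of the 6 mesenchyme markers was called, with sums of 762 to 969 RPM at P0 and 757 to 3493 RPM at P6. Lum alone averaged 754 RPM in the P0 and 2021 RPM in the P6 DMSO libraries. The part of these markers in the levels of the FGF genes was not tested. Fgfr1 fell by 1.41 ± 0.24 on the log2 scale (SE, adjusted p = 0.00107, edgeR), from 108 ± 13.3 RPM (SD, n = 4) to 39.1 ± 12.2 RPM (SD, n = 3). Etv5 fell by 1.11 ± 0.16 (SE, adjusted p = 0.000425), from 166 ± 30.6 RPM (SD, n = 4) to 73.0 ± 10.2 RPM (SD, n = 3). Leaving out the DMSO library of replicate 3 at P0 or at P6 brought Etv5 to -0.97 or -0.98, just under 2-fold, with adjusted p values of 0.0012 and 0.00295.

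The ranges of the DMSO libraries did not overlap between the ages for 6 of the 10 genes, each lower at P6, namely Fgf20, Fgfr1, Fgfr3, Spry2, Etv4 and Etv5 (18.7% of all genes), and for none that was higher at P6 (12.4%). Fgf20 had the largest difference, -2.51 ± 0.64 on the log2 scale (SE, adjusted p = 0.0124, edgeR), and Fgfr3 differed by -1.50 ± 0.44 (SE, adjusted p = 0.0252). With no filter on low counts edgeR called Fgf20 too (-2.50, adjusted p = 0.00845). DESeq2 called both (adjusted p = 0.00018 and 0.00177), so that it called 4 of 10 members lower, against 6.12% of all genes. For Fgfr3 the DMSO library of replicate 1 at P6 decided the call, since edgeR gave -2.41 without it (adjusted p = 0.000714). Spry2 differed by -0.82 ± 0.20 (SE, adjusted p = 0.0115) and Etv4 by -1.30 ± 0.45 (SE, adjusted p = 0.0535). Fgf10, Fgf8 and Spry4 had log2 fold changes of -0.80, -0.85 and -1.05 and overlapping ranges. Leaving out 1 library, or both of a replicate number, gave further calls, all lower at P6. Fgf20 was called without the P6 compound E library of replicate 2 or 3 (adjusted p = 0.00642 and 0.0056), Spry2 without the P6 DMSO library of replicate 1 (-1.02, adjusted p = 0.00624), Etv4 without both P6 libraries of replicate 1 (-1.80, adjusted p = 0.0029) and Fgf10 without the P6 DMSO library of replicate 2 (-1.26, adjusted p = 0.00825). Fgfr2 was the one gene with a value above 0, 1.57 ± 1.20 (SE), and it became -2.69 when the P6 DMSO library of replicate 3 was left out.

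**Figure D3:**
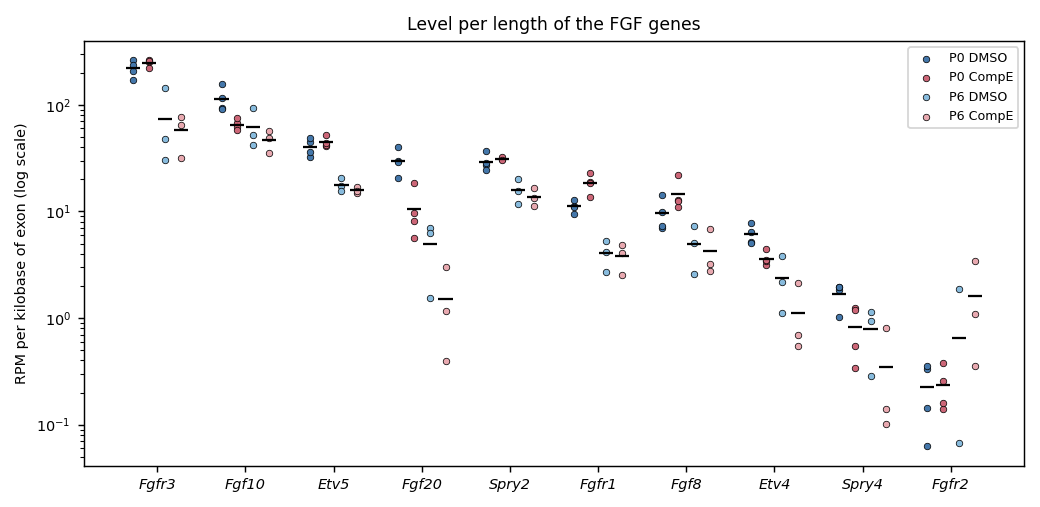
Level per length of the 10 FGF genes, in RPM per kilobase of exon on a log axis, with genes ordered by their mean in P0 DMSO libraries; points are libraries and black bars are means of the P0 DMSO, P0 CompE, P6 DMSO and P6 CompE groups, and the P6 DMSO library with no Fgfr2 read cannot be drawn on the log axis. Fgfr3 and Fgf10 have the highest means in each group, 219 and 114 in P0 DMSO, and Fgfr2 lowest at P0, with a mean of 0.223.

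Levels of different genes were set side by side per length, in RPM per kilobase of exon. In P0 DMSO libraries the order was Fgfr3 (219 ± 38.5, SD, n = 4), Fgf10 (114 ± 30.0), Etv5 (40.4 ± 7.45), Fgf20 (29.8 ± 8.10), Spry2 (29.3 ± 5.21), Fgfr1 (11.2 ± 1.38), Fgf8 (9.58 ± 3.28), Etv4 (6.13 ± 1.32), Spry4 (1.68 ± 0.446) and Fgfr2 (0.223 ± 0.143). The ranges of Etv5 and Fgf20, of Fgf20 and Spry2, of Fgfr1 and Fgf8, and of Fgf8 and Etv4 overlapped, and the other neighbors lay apart. With compound E at P0, Fgf20 came below Spry2, Fgfr1 and Fgf8, at 10.5 ± 5.60, and its range overlapped those of Fgfr1 and Fgf8. At P6 Fgfr3 (74.1 ± 61.4, SD, n = 3) and Fgf10 (62.0 ± 26.9) no longer lay apart with DMSO. Etv5 (17.8 ± 2.50) and Spry2 (15.9 ± 4.23) followed them, with overlapping ranges, and lay above the other 6 genes.

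The other genes of the pathway were read from fixed lists of FGF ligands, receptors and co-receptors, feedback inhibitors, response factors, adaptors with the MAPK relay, and extracellular modulators. These lists together held 78 genes, the 10 above among them. With compound E at P0, none of the 17 ligands, 6 receptors, 10 inhibitors, 7 response factors, 20 relay genes and 11 modulators tested was called without the block, against 1.22% of all genes. The median log2 fold change of the ligands was -0.58 and that of the response factors 0.34, against 0.01 over all genes. Of the 7 response factors, 5 had values above 0 and 2 had values below 0. The 2 were the ETS factors Etv4 and Etv1. Etv1 stood at -0.73 ± 0.13 (SE, adjusted p = 0.0119, edgeR) without the block and -0.73 ± 0.12 (SE, adjusted p = 0.0077) with it, under 2-fold. With the block Flrt3, a membrane protein that binds FGF receptors, rose by a log2 fold change of 1.07 ± 0.16 (SE, adjusted p = 0.00528, edgeR), and it was the only call besides Fgf20, against 2.2% of all genes. Fgfrl1, a receptor without a kinase domain, had a log2 fold change of -0.77 ± 0.12 (SE, adjusted p = 0.00556) without the block, under 2-fold. At P6 none of these genes was called.

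Between the ages, 8 of the 61 genes tested from the lists besides the 10 were called in DMSO libraries, 7 lower (against 3.38% of all genes) and 1 higher at P6 (against 3.74%). Of the response factors, 4 of 7 were called lower, against 3.38% of all genes (median log2 fold change of -1.23 against -0.05 over all genes), namely Fos at -2.55, Egr1 at -1.89, Etv1 at -1.23 and Etv5. Fos and Egr1 are immediate early genes. Of the feedback inhibitors 2 of 10 were called lower (median of -0.78), against the same 3.38%. They were Spry1, which went from 112 ± 24.2 RPM (SD, n = 4) to 24.5 ± 8.07 RPM (SD, n = 3), and Dusp6, a phosphatase of ERK, which went from 160 ± 24.3 RPM (SD, n = 4) to 58.1 ± 11.1 RPM (SD, n = 3). Their log2 fold changes were -2.11 ± 0.26 and -1.38 ± 0.17 (SE). Of the receptors and co-receptors only Fgfr1 was called (1 of 6, median of -1.08).

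Each of the other lists held 1 call, to be read against 3.38% of all genes called lower and 3.74% called higher. Of the 20 adaptor and relay genes, which carry the signal from many receptors, 1 was called lower, the adaptor Frs3 at -1.13 ± 0.26 (SE, adjusted p = 0.00715, edgeR), and the median was -0.01. Of the 11 modulators 1 was called lower, Flrt3 at -1.70 ± 0.31 (SE). Fgf15, a ligand of the endocrine group, was the only one called higher at P6, at 1.93 ± 0.45 (SE, adjusted p = 0.00786), and 1 of 17 ligands was thus called with a median of -0.75. The calls of Frs3 and Fgf15 were each lost in 15 of 25 alternatives. Those of Egr1, Fos and Flrt3 were lost in 3, 3 and 2 of 25, among them for Egr1 without the P6 DMSO library of replicate 1 (-1.64, adjusted p = 0.0126) and for Fos and Flrt3 without that of replicate 2 (-2.48 and -1.53, adjusted p = 0.0128 and 0.0126). Those of Spry1, Dusp6 and Etv1 held in 25 of 25. Exons of Frs3 overlap those of Tomm6os on the same strand and of Frs3os on the opposite strand. On the opposite strand, exons of Fgf15 overlap those of Gm26793 and Gm39119, and exons of Spry1 those of Gm42922.

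**Figure D4:**
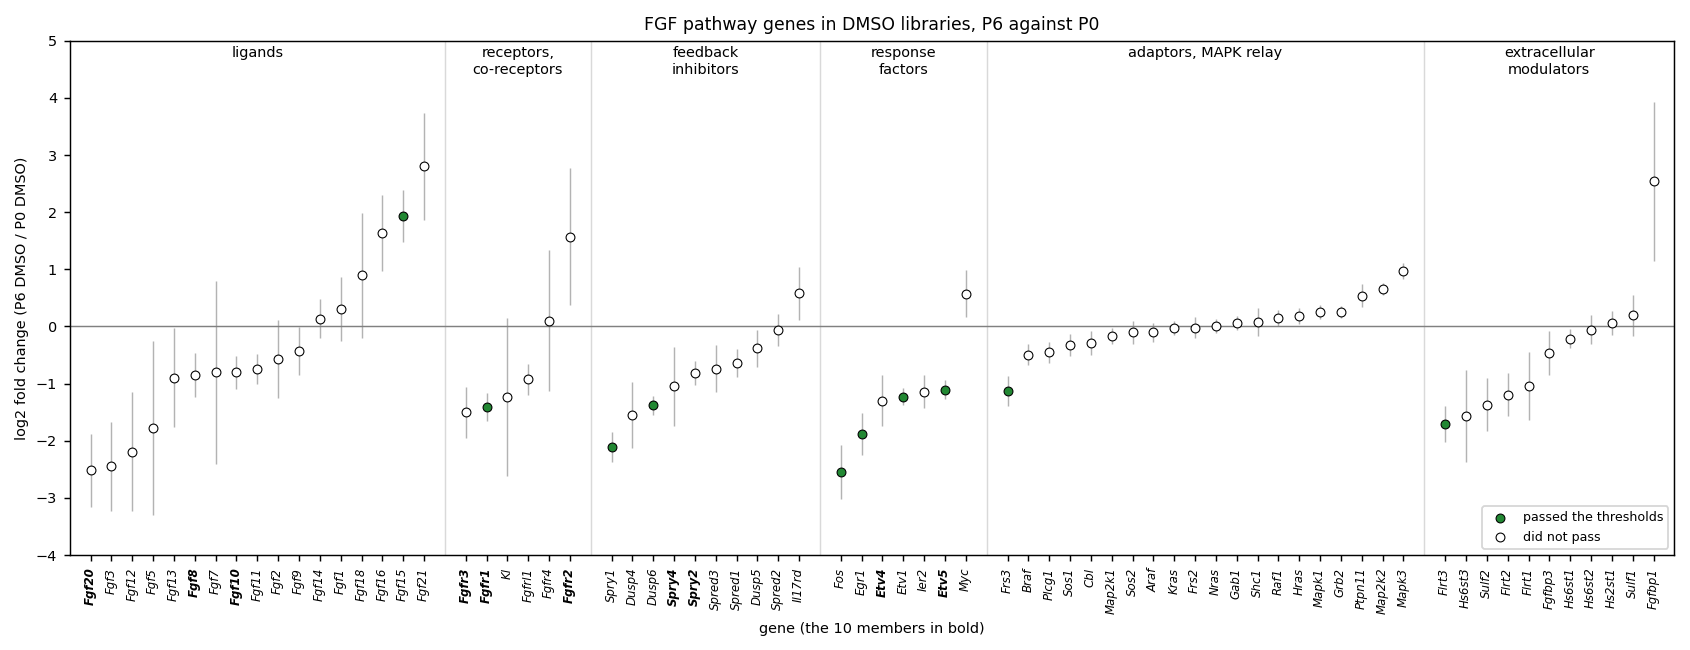
Log2 fold change of P6 DMSO against P0 DMSO libraries for each tested gene of the FGF lists (edgeR, bars of 1 SE), ordered by value within each list and with the 10 members in bold; green points passed an adjusted p of 0.01 and a 2-fold change. The response factors have 4 of 7 genes called lower and the adaptor and MAPK relay genes 1 of 20.

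Genes with the most similar profile were named for each member, by Pearson's r of TMM-normalized log2 CPM over the 14 libraries, among 9988 genes whose mean reached 10 RPM. For Fgf20 they were Lrrtm1 (r = 0.96), Stox1 (0.96) and Sox2 (0.94), a transcription factor of prosensory cells and SCs, and Sox2 kept r = 0.77 within the 8 P0 and 0.92 within the 6 P6 libraries. For Fgf10 they were Smarca1 (0.94), Klhl23 (0.93) and Rasef (0.92), with 0.93 to 0.97 within P0. For Fgfr3 the closest included Prox1 (0.97), a factor of pillar and Deiters' cells, yet within P0 alone that r was 0.15. Spry2 and Fgfr3 both had Ace among their 3 (0.98 and 0.97), and Spry2 and Etv5 both had Parp8 and Traf4. For Fgfr1 the closest was Sall3 (0.97), for Etv4 Gpr19 (0.96), for Spry4 Sema5a (0.93), for Fgf8 Tgs1 (0.96) and for Fgfr2 Pid1 (0.85). The libraries share age, batch and treatment, so these values describe profiles.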

How the data were processed

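RNA of sorted EGFP+ SCs was amplified as full-length cDNA, without molecular identifiers, and sequenced. The authors trimmed the reads with Trim Galore 0.6.0 and cutadapt 1.15, aligned them to GRCm38 (mm10) with STAR (version 2.7.0f in the submitters' processing notes), and deposited raw read counts per gene symbol, not normalized. The gene annotation and the strand setting are not given in the sources used here. Coordinates, exonic overlaps and sequences are from RefSeq and GENCODE annotations of GRCm38, and 32501 of 35976 symbols were found in RefSeq.

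RPM values are counts divided by the library total. Counts were fitted with edgeR 4.0.16 in R 4.3.3 (TMM normalization, filterByExpr with a minimum count of 10, glmQLFit and glmQLFTest), each age alone and, for the interaction and the ages, over all 14 libraries. SEs are the log2 fold change divided by the square root of the F statistic. Thresholds were an adjusted p of 0.01 and 2-fold, as in the study, which used DESeq2. The study reports changed genes at both ages, fewer at the older age. Here edgeR called 0 genes at P6, without or with the replicate block, so its counts are not those of the study. Groups, replicate numbers and batches came from the labels. Deviations from group means correlated between same-numbered libraries, by 0.144 to 0.456 at P0 and 0.251 to 0.605 at P6, and the blocked fits therefore took equal numbers as pairs. No replicates were counted as duplicates (the lowest chi-square of a pair was 19.0 per degree of freedom). Labels do not say that replicates came from separate litters, so p-values measure the spread between these samples, and counting error is not that of independent molecules.

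Alternatives were DESeq2 1.42.0, its size factors within edgeR, no filter, a replicate or batch block, a looser limit (adjusted p of 0.05, any fold), 1 joint fit, and leaving out each library or pair. DESeq2 with the block was added after the data had been seen. The 10 genes and the gene lists were chosen with earlier results of these data known. Named are the 10 genes in every library, other genes of the FGF lists that passed in a main or blocked fit, the marker genes that bear on them, and the 3 most similar profiles of each member. Fgfrl1 was named after its value was seen, and the P0 value of Etv1 was likewise added after it was seen. On counts simulated with 50 genes changed at each fold, edgeR called 22%, 90%, 96% and 100% of genes with log2 folds of 1, 1.5, 2 and 3 at P0 (15937 genes) and 4%, 34%, 52% and 94% at P6 (15322 genes). The changed genes were drawn only from genes above a minimum mean level. Fgfr2 at P0 and Spry4 at P6 lay below that level, so these shares do not describe genes as low as they are.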

Additional observations from a re-analysis of the deposited data

Results flagged for a closer look

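Of 20 groups of 4 P0 libraries examined, 1 for each gene and treatment, 2 had a library far from the other 3, and chance alone gives about 1 in 20. The compound E library of replicate 1 held 29.9 RPM of Fgf8, against 14.9 to 17.4 RPM in the others, and it also held the highest sum of HC markers (2832 RPM). The DMSO library of replicate 1 held 4.84 RPM of Spry4, against 8.69 to 9.27 RPM in the others. It also held the lowest sum of SC markers of its group (5096 RPM), yet the highest Etv4 (24.4 RPM). Among P0 DMSO libraries, replicate 4 held the highest sum of HC markers (1802 RPM), and replicate 1 the most Fgf8 (19.1 RPM). Whether the marker sums bear on Fgf8 or Spry4 was not tested. Fgfr1 was higher with compound E in 4 of 4 pairs at P0 (17.4% of all genes) and lower in 3 of 3 pairs at P6 (17.1%). The P6 differences were small, with log2 ratios of -0.12 to -0.03. With libraries left out, the P6 log2 fold change of Fgfr1 ran from -0.27 to 0.12. The interaction was -0.74 on the log2 scale and did not pass the threshold (edgeR, adjusted p = 1.000, and 0.149 with the replicate block), and DESeq2 with the block gave an adjusted p of 0.0109.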

How the results depend on the processing

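Of 900 alternative values over 40 results (10 genes in 4 comparisons), 830 kept their direction and their side of the threshold, 4 lost the call, 24 gained one and 42 changed sign. All 42 changes of sign came from leaving out libraries. At P0 the count of FGF genes called was 0 of 10, and it became 1 with DESeq2, 1 with the replicate block, 1 with the batch block, 2 with DESeq2 and the replicate block, and 3 (Fgf10, Fgf20 and Etv4) at the looser limit (adjusted p of 0.05, any fold). Leaving out libraries gave 0 to 1, with 1 (Fgf20) when the compound E library of replicate 1 or both libraries of replicate 1 were left out. At P6 and for the interaction it stayed 0 in every alternative run. For the ages the count of 2 became 4 with DESeq2, 5 at the looser limit, 3 (with Fgf20) with no filter on low counts, and 1 to 5 without single libraries or pairs, with 4 without the P6 DMSO library of replicate 1 and 5 without that replicate. Fgfr1 kept its call for the ages in every alternative run. Over all genes, the 1216 calls for the ages (17090 genes) became 1918 with DESeq2 and 3840 at the looser limit. With no filter they became 1209 (26890 genes), and without libraries 667 to 1281. The cause of these changes was not tested. Over all genes, the 195 calls at P0 became 350 with the replicate block, 334 with the batch block, 425 with DESeq2, 524 with DESeq2 and the block, 617 at the looser limit and 117 in the joint fit, and 1 to 225 without libraries, with 1 when replicate 4 was left out.

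With libraries left out, the log2 fold changes at P0 ran from -0.31 to 0.36 for Fgfr2, from -0.0003 to 0.24 for Fgfr3 and from -0.023 to 0.19 for Spry2. At P6 they ran from -0.71 to 0.12 for Fgf8, from -0.76 to 0.059 for Fgf10, from -0.27 to 0.12 for Fgfr1, from -0.72 to 0.58 for Fgfr3 and from -0.26 to 0.0022 for Etv5. For the interaction they ran from -1.14 to 0.41 for Fgf20, from -0.83 to 0.46 for Fgfr3, from -1.57 to 0.69 for Spry4 and from -1.09 to 0.24 for Etv4. For the ages Fgfr2 ran from -2.69 to 2.15. No paired analysis was possible for the ages because no batch held both. The replicate block changed no call of a member other than Fgf20 at P0 in edgeR and Spry4 at P0 in DESeq2. Among genes at a few RPM (Fgfr2, Spry4 and, at P6, Fgf20 and Etv4), the reads and the spread between libraries limit what can be seen.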
